A study of Mus musculus with 6 samples.

Results

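Thyroid hormone activation, transport and response were followed through 8 genes: the deiodinases *Dio1* and *Dio2*, the transporter *Slc16a10*, the receptors *Thra* and *Thrb*, and the hormone-responsive genes *Thrsp*, *Klf9* and *Hr*. They were taken by name from the 47069 gene identifiers that each mouse's table holds. All 8 were found, and 7 of them had enough counts for a test among 17667 tested genes, while *Dio1* did not. RNA was measured in whole inguinal subcutaneous white adipose tissue (SC-WAT) of 3 *Egr1*+/+ and 3 *Egr1*-/- mice, with 1 library per mouse. All 6 were untreated C57BL/6 females aged 2 weeks, of a line kept on the C57BL/6 J substrain. In the *Egr1*-/- mice the gene of the zinc finger transcription factor EGR1 carries an inserted *LacZ* sequence and a frameshift in every cell of the body, not in fat cells alone. The mice came from 4 litters of heterozygous crosses, and 1 *Egr1*+/+ and 1 *Egr1*-/- mouse were littermates. If these were the only littermates of unlike genotype, some mice of the same genotype shared a litter. Which ones is not stated, and the tests treated the mice as independent.

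Thyroid hormone leaves the gland mostly as thyroxine, a precursor that becomes the active triiodothyronine when a deiodinase removes an iodine from its outer ring. DIO2 does this inside the cell, in brown fat among other tissues, and is induced there by noradrenaline through cyclic AMP. The active hormone enters cells through transporters and binds nuclear receptors, which sit on target genes with retinoid X receptors and exchange corepressors for coactivators. In brown fat it acts together with adrenergic signals on genes of heat production and lipid synthesis.

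Counts on genes summed to between 29661984 and 42357981 per mouse, of which mitochondrial genes took 50.0% to 57.4% in *Egr1*+/+ and 54.9% to 66.3% in *Egr1*-/- mice. Levels are given in CPM, the usual scale of counts relative to library size, here after TMM normalization, which adjusts for such differences in composition. The inactivated gene was checked first: its counts were 353, 241 and 711 for *Egr1*+/+ and 103, 84 and 57 for *Egr1*-/- mice, and the log2 fold change of *Egr1* was -2.19 (SE 0.299; edgeR, adjusted p = 0.0879). The insertion lies in the untranslated region before the coding sequence, and where in *Egr1* these counts fall was not tested. Markers of adipocytes were high in every mouse, with 9 genes summing to between 5591 and 7903 CPM. Among all 17667 tested genes, 3 passed an adjusted p of 0.05 in edgeR, 0.0170% of them. All 3 were higher in *Egr1*-/- mice (0.0170%), and 0 were lower (0%). Without adjustment, 1884 genes (10.7%) had a p under 0.05, of which 894 were higher (5.06%) and 990 lower (5.60%). DESeq2, on the same counts, gave 366 genes, 2.63% of the 13899 to which it assigned an adjusted p, with 129 higher (0.928%) and 237 lower (1.71%). With total counts in place of TMM factors, edgeR gave 79 genes, 12 higher and 67 lower, and the median log2 fold change of all genes moved from 0.0011 to -0.15. In 2871 genes (16.3%) the CPM of the genotypes did not overlap: 1440 genes (8.15%) were higher in all 3 *Egr1*-/- mice than in any *Egr1*+/+ mouse, and 1431 (8.10%) were lower in all 3.

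The promoters of *Dio2* and *Slc16a10* are shown because they hold the cyclic AMP motif and the EGR motif in the group. For 6 of the 8 genes, 250 bases before the start of transcription were read from RefSeq sequences of build GRCm38.p6, in 7 windows. Those of *Thra* and *Hr* were not analysed here. In the *Dio2* promoter (minus strand, chr12:90739039-90739288) capitals mark the cyclic AMP response element TGACGTCA, 95 bases before the RefSeq start, and the TATA box TATAAA, 30 bases before it. This start lies 600 bases before that of the GENCODE annotation. In the *Slc16a10* promoter (minus strand, chr10:40142255-40142504) capitals mark the EGR motif GCGNGGGCG, 162 bases before the start.
Dio2: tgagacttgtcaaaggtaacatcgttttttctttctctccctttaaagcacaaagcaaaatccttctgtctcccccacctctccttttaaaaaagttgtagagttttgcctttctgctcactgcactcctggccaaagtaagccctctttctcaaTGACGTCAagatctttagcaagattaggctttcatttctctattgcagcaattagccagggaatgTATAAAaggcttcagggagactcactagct
Slc16a10: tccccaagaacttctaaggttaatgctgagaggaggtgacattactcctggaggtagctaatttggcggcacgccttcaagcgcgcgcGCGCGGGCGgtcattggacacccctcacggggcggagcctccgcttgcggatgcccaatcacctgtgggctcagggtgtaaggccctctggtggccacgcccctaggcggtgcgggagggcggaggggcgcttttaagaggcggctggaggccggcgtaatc

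Motifs were searched on both strands in the 32851 RefSeq promoter windows of this length. TGACGTCA was in 1.55% of them and, among the 7 windows of the group, in that of *Dio2*. Its shorter form TGACG, which TGACGTCA contains on each strand, was in 17.8% of all windows and in those of *Dio2* and *Klf9* and 1 of the 2 windows of *Thrb*. GCGNGGGCG was in 4.7% of all windows and, in the group, in that of *Slc16a10*. TATAAA was in 12.4% of all windows and in those of *Dio2* and the other window of *Thrb*. The receptor core motif AGGTCA was in 14% of all windows and in 1 window of *Thrb*, 184 bases before its start. A direct repeat of AGGTCA with a gap of 4 bases, the classical thyroid hormone response element, was in 0.0152% of all windows and in 0 of the 7 windows of the group. The RefSeq starts of *Dio1*, *Slc16a10* and *Klf9* lie within 4 bases of the GENCODE starts. That of *Thrsp* lies 180 bases inside the GENCODE gene, so most of its window is transcribed in that annotation, and those of *Thrb* lie 699 and 321383 bases inside. These are matches of letters in a short window, and binding was not measured in these data.

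*Dio2* was the gene of the group with the largest difference between the genotypes. It encodes the type 2 deiodinase, which makes triiodothyronine inside the cell. The gene is on chromosome 12 (ENSMUSG00000007682.5, GRCm38, 90724552 to 90738438, minus strand). Counts were 591, 234 and 673 for *Egr1*+/+ replicates 1 to 3 and 1570, 1088 and 2176 for *Egr1*-/- replicates 1 to 3. These were levels of 17.2, 7.79 and 15.6 CPM against 47.1, 35.1 and 70.4 CPM. The lowest *Egr1*-/- mouse stood at 35.1 CPM, above the highest *Egr1*+/+ mouse at 17.2 CPM, and within each genotype the levels still differed by about the same relative amount, with a coefficient of variation of 37.2% in *Egr1*+/+ and 35.2% in *Egr1*-/- mice. Mean levels were 13.5 ± 5.04 CPM for *Egr1*+/+ and 50.9 ± 17.9 CPM for *Egr1*-/- mice (SD, n = 3 each), and the fitted levels differed 3.75-fold. This was a log2 fold change of 1.91 (SE 0.321, 95% interval 1.18 to 2.63). In edgeR's test the unadjusted p was 0.000212 and the adjusted p 0.151, so *Dio2* did not pass the threshold there. In DESeq2 it passed, with an adjusted p of 2.71e-08. It ranked 22 of 17667 tested genes both by the size of its log2 fold change and by its p. With each mouse left out in turn, the log2 fold change kept its sign, between 1.600 and 2.12. *Dio2* is a gene the study itself singled out in these mice, so its direction here is no independent evidence. A long non-coding RNA gene read from the other strand, *Gm26512*, shares 100 bases of exon with *Dio2* (1.72% of its exon length) and had 13 to 29 counts per mouse. In whole tissue, more cells of a kind that expresses a gene and more of its RNA per cell cannot be told apart.

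*Dio1* (chromosome 4, ENSMUSG00000034785.14, 107291465 to 107307169, minus strand), the deiodinase of liver and kidney, was close to absent. Its counts were 5, 2 and 0 for *Egr1*+/+ replicates 1 to 3 and 0, 0 and 4 for *Egr1*-/- replicates, where a count of 0 still allows up to 3. The means were 0.0707 and 0.0431 CPM, and no comparison was made at this depth. *Dio3*, whose enzyme inactivates the hormone by removing an iodine from the inner ring, had 2 counts over the 3 *Egr1*+/+ mice and 2 over the 3 *Egr1*-/- mice. Of the deiodinase genes, *Dio2* thus gave nearly all the counts in every mouse.

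**Figure D1:**
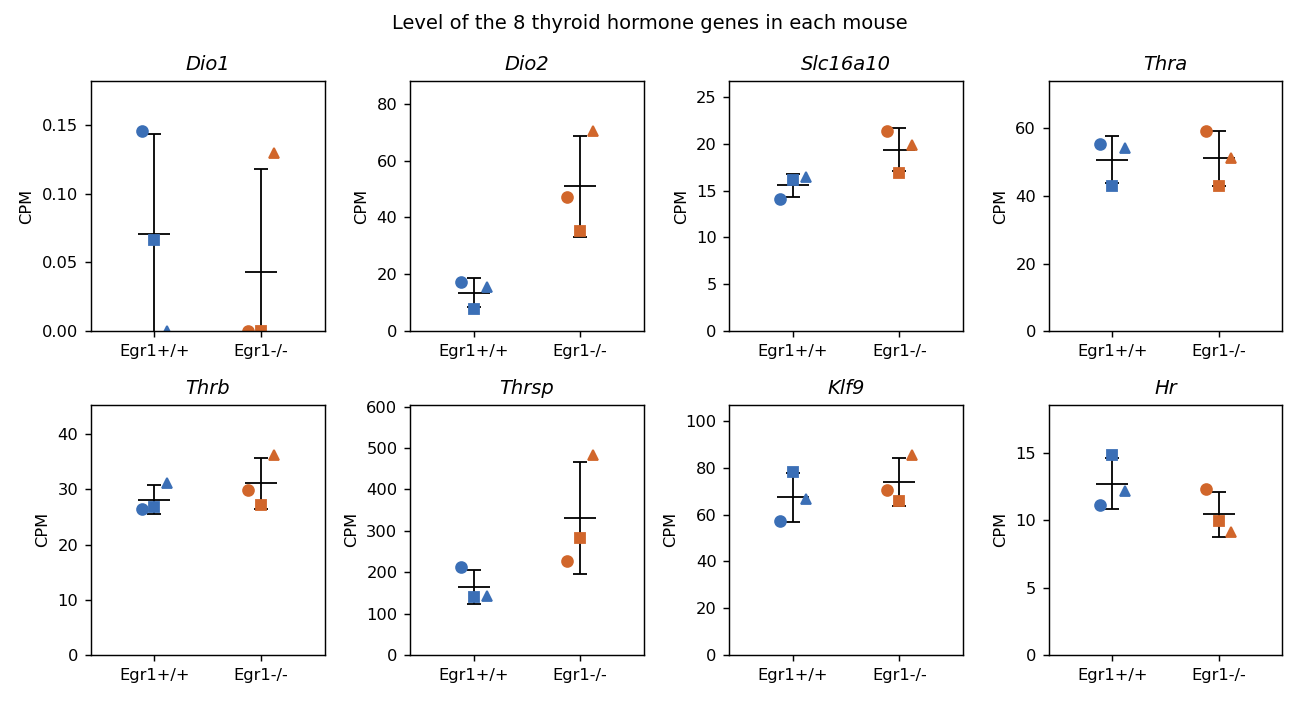
Level of each of the 8 genes in CPM (vertical axes, each from 0) in the 3 *Egr1*+/+ mice (blue) and the 3 *Egr1*-/- mice (orange), with circles, squares and triangles for replicates 1, 2 and 3 and bars for mean ± SD (the lower *Dio1* bars are cut at 0). *Dio2*, *Slc16a10* and *Thrsp* are the panels in which the lowest *Egr1*-/- mouse stands above the highest *Egr1*+/+ mouse, at 35.1 against 17.2 CPM, 16.8 against 16.4 CPM and 227 against 211 CPM.

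*Slc16a10* encodes a membrane transporter that carries aromatic amino acids and thyroid hormone. On chromosome 10 (ENSMUSG00000019838.10, 40033532 to 40142258, minus strand), it drew 485, 485 and 707 counts from the *Egr1*+/+ replicates and 711, 521 and 615 from the *Egr1*-/- replicates. Its levels were 14.1, 16.2 and 16.4 CPM in *Egr1*+/+ and 21.3, 16.8 and 19.9 CPM in *Egr1*-/- mice. The genotypes did not overlap, but *Egr1*-/- replicate 2 at 16.8 CPM was next to *Egr1*+/+ replicate 3 at 16.4 CPM. Means were 15.6 ± 1.252 and 19.4 ± 2.31 CPM (SD, n = 3 mice each). This gave a log2 fold change of 0.31 (SE 0.130, 95% interval 0.021 to 0.61) and an unadjusted p of 0.0384, and *Slc16a10* passed in neither edgeR (adjusted p = 0.435) nor DESeq2 (adjusted p = 0.4445). With total counts in place of TMM factors the log2 fold change was 0.15.

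*Thra* encodes thyroid hormone receptor alpha and also an isoform that does not bind the hormone, and counts per gene do not separate them. *Thra* is on chromosome 11 (ENSMUSG00000058756.13, 98740638 to 98769006, plus strand). Its levels were 55.3, 42.9 and 54.0 CPM in *Egr1*+/+ and 59.1, 43.0 and 51.2 CPM in *Egr1*-/- mice, so that the ranges of the genotypes overlapped almost in full. The means were 50.7 ± 6.82 and 51.1 ± 8.08 CPM (SD, n = 3 mice each). Its log2 fold change was 0.01 (SE 0.152, 95% interval -0.33 to 0.35, adjusted p = 0.990 in edgeR), and -0.16 with total counts in place of TMM factors. The end of *Thra* shares 263 bases of exon, 5.7% of its exon length, with *Nr1d1* on the other strand. *Nr1d1*, the gene of the clock repressor REV-ERB alpha, had 142 to 270 counts per mouse against 1288 to 2329 for *Thra*, and a log2 fold change of -0.26 (SE 0.221, adjusted p = 0.736). The libraries kept the strand, but the strand setting of the counting is not given in the sources used here.

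*Thrb* encodes receptor beta, the main form in liver, and sits on chromosome 14 (ENSMUSG00000021779.16, 17660261 to 18038090, plus strand). Its levels were 26.46, 26.8 and 31.2 CPM in *Egr1*+/+ and 29.8, 27.2 and 36.3 CPM in *Egr1*-/- mice, and the genotypes overlapped. The means were 28.2 ± 2.66 and 31.1 ± 4.68 CPM (SD, n = 3 mice each). The log2 fold change was 0.14 (SE 0.137, 95% interval -0.17 to 0.45, adjusted p = 0.771 in edgeR), and -0.0075 with total counts in place of TMM factors. Without *Egr1*-/- replicate 3 it was 0.02, and it reached 0.23 without *Egr1*-/- replicate 2. For both receptor genes the intervals leave out a difference as large as that of *Dio2*.

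Per kilobase of exon, *Thra* was above *Thrb* in all 6 mice. The ratio of their levels per kilobase was 3.35, 2.57 and 2.78 for *Egr1*+/+ replicates 1 to 3 and 3.18, 2.54 and 2.26 for *Egr1*-/- replicates. On the log2 scale the ratio was 1.53 ± 0.198 in *Egr1*+/+ and 1.396 ± 0.250 in *Egr1*-/- mice, a difference of -0.13 with overlapping genotypes (two-sided exact permutation test, p = 0.5, where 0.1 is the smallest p that 3 mice against 3 allow). The size rested on single mice: it was -0.02 without *Egr1*+/+ replicate 1 or without *Egr1*-/- replicate 3, and -0.27 without *Egr1*-/- replicate 1.

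*Thrsp*, also called Spot 14, is a hormone-responsive gene of lipid synthesis in fat and liver, and was the most abundant gene of the group per length of exon. From its locus on chromosome 7 (ENSMUSG00000035686.8, 97412938 to 97417730, minus strand) came 7257, 4176 and 6144 counts in *Egr1*+/+ replicates 1 to 3, while *Egr1*-/- replicates 1 to 3 gave 7564, 8755 and 14955. Its levels were 211, 139 and 142.5 CPM in *Egr1*+/+ and 227, 283 and 483.5 CPM in *Egr1*-/- mice. The genotypes did not overlap, with *Egr1*-/- replicate 1 at 227 CPM close to *Egr1*+/+ replicate 1 at 211 CPM and *Egr1*-/- replicate 3 far above the rest. The means were 164 ± 40.7 and 331 ± 135 CPM (SD, n = 3 mice each). Its log2 fold change was 1.01 (SE 0.281, 95% interval 0.38 to 1.65), with a p of 0.00566 before and 0.252 after adjustment in edgeR, while in DESeq2 *Thrsp* passed with an adjusted p of 0.00521. The size rested in part on *Egr1*-/- replicate 3: without that mouse the log2 fold change was 0.64 (adjusted p = 0.720), and without any other mouse it was at least 0.91.

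*Klf9* encodes a Krüppel-like transcription factor that thyroid hormone and glucocorticoids induce in many tissues. The gene is on chromosome 19 (ENSMUSG00000033863.1, 23141226 to 23168134, plus strand). Its levels were 57.2, 78.0 and 66.7 CPM in *Egr1*+/+ and 70.6, 65.8 and 85.5 CPM in *Egr1*-/- mice, which overlapped. The means were 67.3 ± 10.4 and 74.0 ± 10.3 CPM (SD, n = 3 mice each). The log2 fold change was 0.14 (SE 0.151, 95% interval -0.21 to 0.48, adjusted p = 0.810 in edgeR), and -0.0014 with total counts in place of TMM factors. It was 0.02 without *Egr1*+/+ replicate 1 or without *Egr1*-/- replicate 3, and 0.26 without *Egr1*+/+ replicate 2.

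*Hr*, named after the hairless mouse, encodes a nuclear corepressor and is a direct target of the hormone in brain. *Hr* is on chromosome 14 (ENSMUSG00000022096.14, 70552212 to 70573548, plus strand). Its levels were 11.2, 14.9 and 12.1 CPM in *Egr1*+/+ and 12.3, 9.94 and 9.09 CPM in *Egr1*-/- mice. The means were 12.7 ± 1.92 and 10.4 ± 1.67 CPM (SD, n = 3 mice each), with overlap through *Egr1*-/- replicate 1 at 12.3 CPM. *Hr* was the gene of the group with a negative log2 fold change under TMM, -0.28 (SE 0.165, 95% interval -0.65 to 0.091, adjusted p = 0.601 in edgeR). It was -0.16 without *Egr1*+/+ replicate 2, -0.19 without *Egr1*-/- replicate 3 and -0.45 with total counts in place of TMM factors.

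Across the group, 0 of the 7 tested genes passed the adjusted threshold in edgeR, where 0.0170% of all tested genes did. In DESeq2 *Dio2* and *Thrsp* passed, 2 of 7, both higher in *Egr1*-/- mice, beside 0.928% of all genes. Without adjustment, 3 genes had a p under 0.05, namely *Dio2*, *Thrsp* and *Slc16a10*, all higher, beside 5.06% of all genes, and 0 were lower, beside 5.60%. These were also the 3 genes in which every *Egr1*-/- mouse was above every *Egr1*+/+ mouse, beside 8.15% of all genes. The group was put together with results of these data known, so these counts describe it and test nothing. Among the responsive genes the log2 fold changes were 1.01 for *Thrsp*, 0.14 for *Klf9* and -0.28 for *Hr*, and differences between them were not tested. The median log2 fold change of the 7 genes was 0.14, beside 0.0011 over all tested genes.

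**Figure D2:**
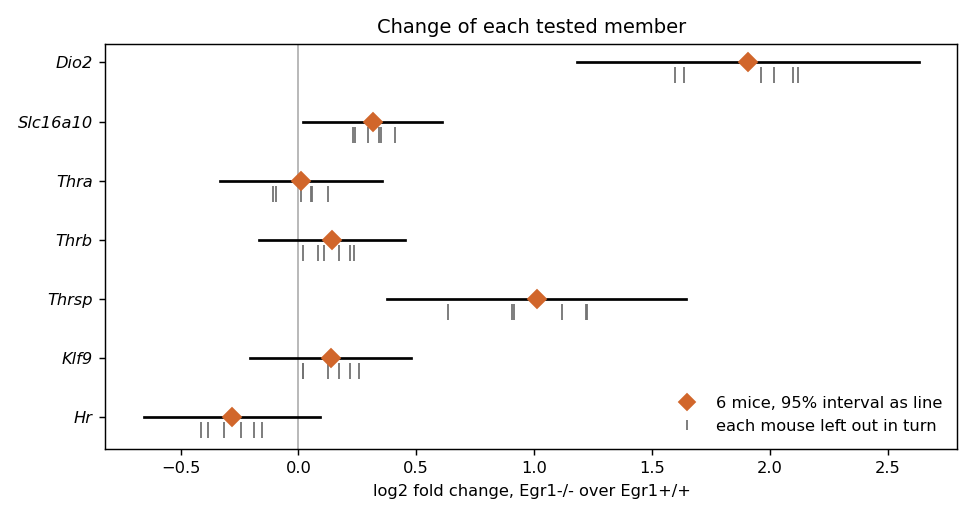
Log2 fold change of the 7 tested genes, *Egr1*-/- over *Egr1*+/+ (horizontal axis), as diamonds with the 95% interval of edgeR's fit as a line, and the values with each of the 6 mice left out in turn as grey ticks below. The intervals of *Dio2* (1.18 to 2.63), *Thrsp* (0.38 to 1.65) and *Slc16a10* (0.021 to 0.61) lie above 0 before any adjustment for the number of genes, and those of the other 4 genes span it.

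Compared per kilobase of exon, the order of the levels in *Egr1*+/+ mice was *Thrsp* (75.0 CPM per kb), *Klf9* (14.0), *Thra* (10.99), *Thrb* (3.80), *Dio2* (2.33), *Slc16a10* (2.12), *Hr* (1.84) and *Dio1* (0.0359). In that order *Klf9* and *Thra*, *Dio2* and *Slc16a10*, and *Slc16a10* and *Hr* were neighbours whose ranges over the 3 mice overlapped. In *Egr1*-/- mice *Dio2*, at 8.75 CPM per kb, stood above *Thrb* at 4.201 CPM per kb in all 3 mice, whereas in all 3 *Egr1*+/+ mice it stood below. Its range, 6.04 to 12.1 CPM per kb, overlapped that of *Thra*, 9.31 to 12.8 CPM per kb. *Thrsp*, at 151 CPM per kb, was again the highest, followed by *Klf9* (15.4) and *Thra* (11.1), and below *Thrb* came *Slc16a10* (2.63), *Hr* (1.51) and *Dio1* (0.0219).

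**Figure D3:**
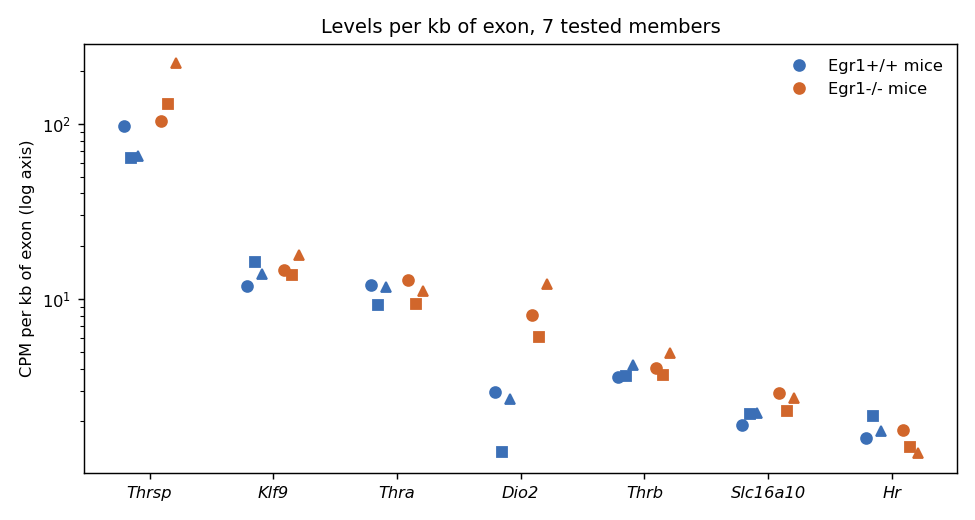
Level of the 7 tested genes in CPM per kb of exon (vertical log axis) in each *Egr1*+/+ mouse (blue) and *Egr1*-/- mouse (orange), with circles, squares and triangles for replicates 1, 2 and 3, ordered by mean. *Dio2* lies below *Thrb* in the *Egr1*+/+ mice (means of 2.33 and 3.80 CPM per kb) and above it in the *Egr1*-/- mice (8.75 and 4.201 CPM per kb).

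The rest of the pathway was covered by 8 lists with 57 genes, of which 49 could be tested. In edgeR 0 of the 49 passed the adjusted threshold, beside 0.0170% of all genes. Before adjustment 8 higher and 3 lower genes had a p under 0.05, beside 5.06% and 5.60% of all genes. In DESeq2 4 passed as higher and 1 as lower, beside 0.928% and 1.71% of all genes. The median log2 fold change of the 49 genes was 0.10. Of the 5 genes past the DESeq2 threshold, 4 were other hormone targets. These 4 include *Ucp1* and *Ppargc1a*, which are also markers of brown and beige adipocytes and were chosen by the study from these mice.

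DIO2 is a selenoprotein and needs the machinery that inserts selenocysteine. Of this list and the other deiodinase genes, 5 of 7 could be tested, and 1 had an unadjusted p under 0.05, on the higher side, beside 5.06% of all genes. This was *Sephs2*, the gene of the enzyme that makes the selenium donor, at 60.1 ± 4.79 CPM in *Egr1*+/+ and 88.5 ± 19.9 CPM in *Egr1*-/- mice (SD, n = 3 mice each). Its log2 fold change was 0.56 (SE 0.166, unadjusted p = 0.00825, adjusted p = 0.283 in edgeR, 0.0546 in DESeq2). Every *Egr1*-/- mouse was above every *Egr1*+/+ mouse, as in 8.15% of all genes. *Sepsecs* (0.21, SE 0.102) and *Pstk* (0.26, SE 0.193), which make selenocysteine on its transfer RNA, had smaller log2 fold changes. Of the genes that control the ubiquitin-dependent breakdown of DIO2, 4 of 4 could be tested. Among them 0 had an unadjusted p under 0.05, beside 10.7% of all genes. The deubiquitinase genes *Usp20* and *Usp33* had log2 fold changes of 0.42 (SE 0.229) and 0.13 (SE 0.110), and the ubiquitin ligase gene *March6* of 0.10 (SE 0.115).

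Of the genes upstream of *Dio2* transcription, 4 of 5 could be tested and 0 had an unadjusted p under 0.05, beside 10.7% of all genes. *Adrb3*, the beta-adrenergic receptor of adipocytes, was at 14.7 ± 4.47 CPM in *Egr1*+/+ and 17.9 ± 3.695 CPM in *Egr1*-/- mice (SD, n = 3 mice each), a log2 fold change of 0.28 (SE 0.225, 95% interval -0.22 to 0.79). *Adrb1*, the receptor through which beta-adrenergic signals act in brown fat precursors and heart, had 0.59 (SE 0.381), and *Creb1*, the gene of the factor that binds the cyclic AMP response element, -0.08 (SE 0.107). The bile acid receptor gene *Gpbar1* was not tested, with 2, 0 and 3 counts in *Egr1*+/+ mice and 0 in each *Egr1*-/- mouse.

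Of the other transport and binding genes, 7 of 11 could be tested, and 2 had an unadjusted p under 0.05, both lower in *Egr1*-/- mice, beside 5.60% of all genes. *Alb*, whose product albumin carries thyroid hormone in blood and is made by the liver, was at 8.91 ± 0.787 CPM in *Egr1*+/+ and 4.79 ± 0.796 CPM in *Egr1*-/- mice (SD, n = 3 mice each). Its log2 fold change was -0.89 (SE 0.174, adjusted p = 0.160 in edgeR, 0.00287 in DESeq2, where it passed). *Slco1a4*, an organic anion transporter gene, was thinly covered, by 15 to 18 counts in a *Egr1*+/+ mouse and 1 to 7 in a *Egr1*-/- mouse, and had a log2 fold change of -1.56 (SE 0.606, unadjusted p = 0.0298, adjusted p = 0.401 in edgeR). *Slc7a5* and *Slc3a2*, the subunits of an amino acid transporter that also carries the hormone, had log2 fold changes of -0.19 (SE 0.202) and -0.09 (SE 0.134).

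Of the 3 receptor partners, 6 corepressors and 7 coactivators, 0 genes passed the adjusted threshold in edgeR or DESeq2. Of all genes 0.0170% and 2.63% did. The retinoid X receptor genes *Rxra*, *Rxrb* and *Rxrg* had log2 fold changes of -0.03 (SE 0.129), 0.08 (SE 0.125) and 0.26 (SE 0.143). Of 6 corepressor genes 0 had an unadjusted p under 0.05, beside 10.7% of all genes. *Ncor1*, the most abundant at 247 CPM in *Egr1*+/+ and 242 CPM in *Egr1*-/- mice, had a log2 fold change of -0.03 (SE 0.112). *Tbl1x*, *Tbl1xr1* and *Hdac3* of the same complex lay between -0.18 and 0.09. All 7 coactivator genes had a positive log2 fold change, as did 8858 of all 17667 tested genes. Of the 7, 2 had an unadjusted p under 0.05, both higher in *Egr1*-/- mice, beside 5.06% of all genes. These were *Med1*, the Mediator subunit that contacts the receptors, at 0.28 (SE 0.114, unadjusted p = 0.0336, adjusted p = 0.418), and the acetyltransferase gene *Ep300* at 0.28 (SE 0.117, unadjusted p = 0.0396, adjusted p = 0.441). *Crebbp*, close kin of *Ep300*, had 0.16 (SE 0.127).

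Of the 14 other hormone targets, 13 could be tested, and 5 higher and 1 lower had a p under 0.05 before adjustment, beside 5.06% and 5.60% of all genes. *Ucp1*, the gene of the uncoupling protein that produces heat, was at 400, 316 and 305 CPM in *Egr1*+/+ and 858, 571 and 948.5 CPM in *Egr1*-/- mice, with a log2 fold change of 1.22 (SE 0.207, adjusted p = 0.151 in edgeR, 3.08e-07 in DESeq2). *Gpd2*, the mitochondrial glycerol phosphate dehydrogenase gene and a classical hormone target, was at 121 ± 17.9 and 228 ± 62.5 CPM (SD, n = 3 mice each), a log2 fold change of 0.91 (SE 0.200, adjusted p = 0.190 in edgeR, 0.000883 in DESeq2). *Mlxipl*, the gene of the carbohydrate response factor ChREBP, was at 16.5 ± 3.94 and 29.3 ± 2.66 CPM (SD, n = 3 mice each), a log2 fold change of 0.83 (SE 0.178, adjusted p = 0.176 in edgeR, 0.00293 in DESeq2). The genotypes did not overlap in any of these 3 genes, beside 8.15% of all genes with every *Egr1*-/- mouse higher. The 3 were named because they had the lowest p of the list. *Ppargc1a*, a coactivator of mitochondrial genes, had a log2 fold change of 1.08 (SE 0.244, adjusted p = 0.193 in edgeR, 0.000979 in DESeq2), and the calcium pump gene *Atp2a2* had 0.30 (SE 0.128, adjusted p = 0.445 in edgeR). The lower gene, *Me1* for malic enzyme, had -0.31 (SE 0.116, adjusted p = 0.375 in edgeR). The lipid synthesis genes *Fasn* and *Acaca*, which share with *Thrsp* the part in fatty acid synthesis, had 0.13 (SE 0.356) and -0.03 (SE 0.148). *Ppargc1a*, *Atp2a2*, *Me1*, *Fasn*, *Acaca*, *Dio3* and *Gpbar1* are named here after their values were seen, and *Ucp1* and *Ppargc1a* are among the genes the study chose from these mice.

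**Figure D4:**
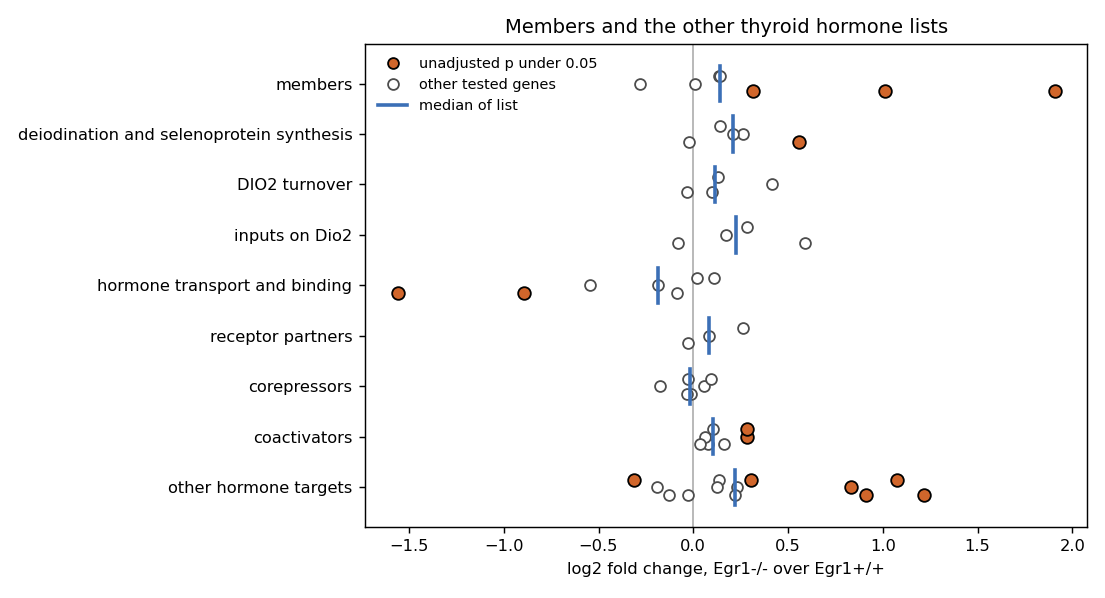
Log2 fold change of the 7 tested members of the group (top row) and of the 49 tested genes in the 8 other lists (horizontal axis, *Egr1*-/- over *Egr1*+/+), with filled points for an unadjusted p under 0.05 in edgeR and a blue line at each list's median. The highest points are *Dio2* at 1.91 among the members and *Ucp1* at 1.22 among the other hormone targets, and the lowest is *Slco1a4* at -1.56 among transport and binding genes.

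*Dio2* was also set against *Ucp1* in the same mouse. The log2 ratio of *Dio2* to *Ucp1* in CPM was -4.54, -5.34 and -4.29 in *Egr1*+/+ and -4.19, -4.02 and -3.75 in *Egr1*-/- mice, with means of -4.72 ± 0.551 and -3.99 ± 0.219 (SD, n = 3 mice each) that differed by 0.74 (two-sided exact permutation test, p = 0.1, which this design cannot go below). Without *Egr1*+/+ replicate 2 the difference was 0.43. The ratio was chosen after the values were seen. The intervals of the log2 fold changes of *Dio2* (1.18 to 2.63) and *Ucp1* (0.75 to 1.69) overlap. Both come from the same mice, so this overlap does not test whether the changes differ.

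The genes whose pattern over the 6 mice was closest to that of *Dio2* were looked for among 14258 tested genes with a mean over 1 CPM, by the root-mean-square distance between log2 levels centred on their own mean. They were *Trim67* (distance 0.390), a TRIM family ubiquitin ligase gene, *Cpn2* (0.439), for a carboxypeptidase N subunit, and *Ppargc1a* (0.446), where the median over all genes was 1.08. Their log2 fold changes were 1.65, 1.065 and 1.08, and that of *Trim67* passed the adjusted threshold in edgeR (adjusted p = 0.0473). Closest to *Thrsp* were *Car14* (0.156), a carbonic anhydrase gene, *Hk2* (0.174), the hexokinase gene of muscle and fat, and *Perm1* (0.194), a regulator of muscle mitochondria, against a median of 0.635. Within the group, the gene nearest to *Dio2* was *Thrsp*, at a distance of 0.598, while the gene nearest to *Thrsp* was *Thrb*, at 0.534, and *Thrb* and *Klf9* were the closest pair, at 0.147. Levels were centred but not scaled, so the distance counts the size of differences as well as their pattern. Genes that vary little, such as *Thrb* and *Klf9*, are therefore close to each other, and a small distance need not mean a like pattern. The distances share the same 6 libraries and describe them only.

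Summed markers of several cell types, like *Dio2* and *Thrsp*, did not overlap between the genotypes. In edgeR 0 genes of any marker list passed the adjusted threshold, beside 0.0170% of all genes. In DESeq2 6 brown and beige genes passed as higher, beside 0.928% of all genes. As lower passed 5 stromal progenitor, 2 macrophage, 2 Schwann cell and 1 adipocyte genes, beside 1.71%. Of all tested genes 8.15% were higher and 8.10% lower in every *Egr1*-/- mouse, and 8809 of 17667 had a negative log2 fold change. The summed level of 8 markers of brown and beige adipocytes was 546 to 695 CPM in *Egr1*+/+ and 942 to 1558 CPM in *Egr1*-/- mice. Its order matched that of *Dio2* among the *Egr1*-/- mice and not among the *Egr1*+/+ mice, where replicate 3 had the lowest sum and replicate 2 the least *Dio2*. The log2 fold changes of its 7 tested markers were all positive and lay between 0.58 and 1.22, and several of these markers are ones the study chose from these mice. The summed level of 9 adipocyte markers was 6944 to 7903 CPM in *Egr1*+/+ and 5591 to 6516 CPM in *Egr1*-/- mice, and 6 of the 9 had a negative log2 fold change. Lists of stromal progenitors (1572 to 1675 against 878 to 1241 CPM, 7 of 7 genes negative), macrophages (328 to 451 against 253 to 304 CPM, 7 of 7 negative) and Schwann cells (256 to 362 against 174 to 226 CPM, 6 of 7 negative) were also lower in every *Egr1*-/- mouse. Endothelial markers (396 to 485 against 359 to 541 CPM, 3 of 7 negative) and lymph node markers (87.8 to 98.9 against 76.0 to 189 CPM, 0 of 8 negative) overlapped. Single genes weighed heavily in some sums. *Fabp4*, with means of 3928 CPM in *Egr1*+/+ and 3430 CPM in *Egr1*-/- mice, was the largest part of the adipocyte sum, and its genotypes overlapped. *Ucp1* (340.5 and 792 CPM) was the largest part of the brown and beige sum, and *Col1a1* (828 and 540 CPM) of the stromal progenitor sum. The part of these cell types in the levels of *Dio2* and *Thrsp* was not tested.

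Skeletal muscle, which also expresses *Dio2*, varied more between mice than any other list, and its genotypes overlapped. The summed level of 11 muscle markers was 1285, 3932 and 256 CPM for the *Egr1*+/+ replicates, against 136, 409 and 3067 CPM for the *Egr1*-/- replicates, and 10 of the 11 had a negative log2 fold change. The mouse with the most muscle RNA, *Egr1*+/+ replicate 2, had the least *Dio2* (7.79 CPM), and the mouse with the next most, *Egr1*-/- replicate 3, had the most *Dio2* and the most *Thrsp*. Without *Egr1*-/- replicate 3 the log2 fold change of *Dio2* was 1.600, and without *Egr1*+/+ replicate 2 it was 1.63. *Myh4*, with means of 685 CPM in *Egr1*+/+ and 436.5 CPM in *Egr1*-/- mice, was the largest part of the muscle sum. The part of muscle in the level of *Dio2* was not tested. Keratinocyte markers (4.66 to 41.0 against 6.43 to 21.6 CPM, 5 of 6 tested genes negative) and mammary epithelial markers (2.82 to 11.4 against 6.60 to 8.41 CPM, 2 of 7 tested genes negative) were low and overlapped. No marker of any list was at 0 in all 6 mice, and the milk protein gene *Wap* was at 0 in 5 of the 6, with 3 counts in *Egr1*+/+ replicate 3.

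**Figure D5:**
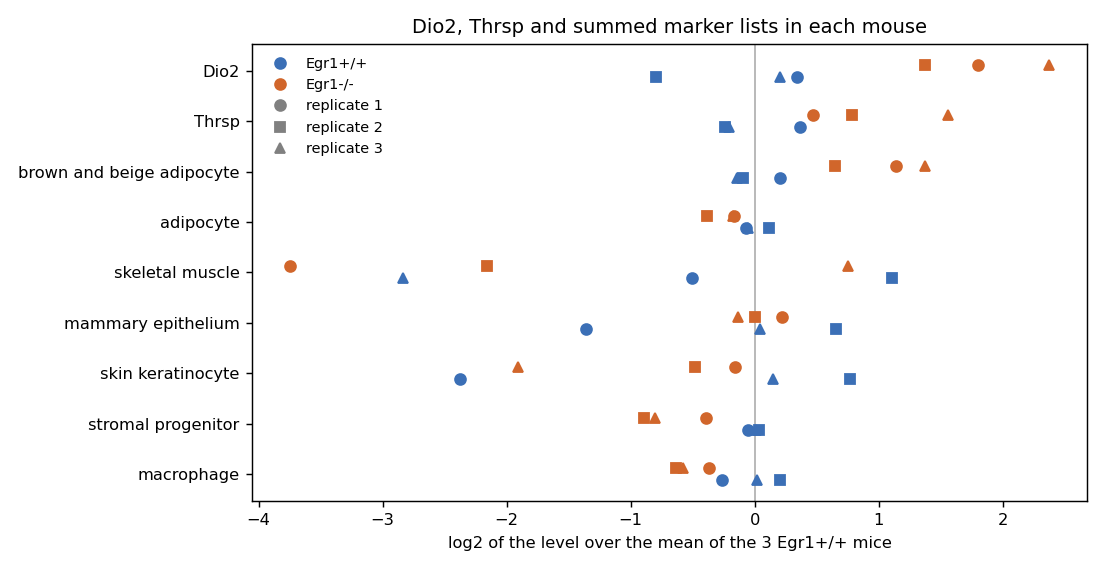
Level of *Dio2*, of *Thrsp* and of the summed markers of 7 cell types in each mouse, as the log2 of its CPM over the mean of the 3 *Egr1*+/+ mice (horizontal axis), with colour for genotype and symbol for replicate. *Dio2*, *Thrsp* and the brown and beige list are higher in every *Egr1*-/- mouse, while skeletal muscle (136 to 3932 CPM) is spread over both genotypes.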

How the data were processed

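Libraries of inguinal SC-WAT RNA from 3 *Egr1*+/+ and 3 *Egr1*-/- mice were made after ribosomal depletion with a kit that keeps the strand. The authors mapped reads to GRCm38 with TopHat and Bowtie, assigned them to GENCODE M8 genes with featureCounts, and deposited raw counts per gene without normalization. Multimapping and strand settings are not given in the sources used here, and these sources differ on whether reads were single or paired. Genes were named through GENCODE M21, which matched 46574 of 47069 identifiers. The tests were run with edgeR 4.0.16 under R 4.3.3 (TMM, filterByExpr, quasi-likelihood test, Benjamini-Hochberg threshold 0.05). DESeq2 1.42.0, other normalizations, no mitochondrial genes, no filter, a replicate block and leaving out each mouse were alternatives. Log2 CPM used a prior count of 2. The scripts were tested on simulated data. The mice are separate samples per the labels. Replicate pairs differed by more than sampling noise, and 0 samples were left out.

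The 8 genes, the lists and the tests were chosen with earlier results of these data known. In each list, genes past the threshold, the 3 with the lowest p and the most abundant one were named, besides those stated to be named later. RT-qPCR, chromatin immunoprecipitation and cell culture were not analysed here. Intervals of CPM per mouse were not computed, and the depth of 29661984 to 42357981 counts leaves genes such as *Dio1*, with at most 5 counts in a mouse, without a comparison.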

Additional observations from a re-analysis of the deposited data

How the results depend on the processing

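Of the 7 tested genes, *Dio2*, *Slc16a10* and *Thrsp* kept a positive and *Hr* a negative log2 fold change under every alternative. The number of genes that passed, 3 of 17667 with TMM factors, was 366 of 13899 with DESeq2 and 79 of 17667 with total counts. It was 552 of 38261 without a filter on low counts, and 0 with upper-quartile factors or with the replicate block. Leaving out 1 mouse at a time gave 0 to 59 genes, the 59 being without *Egr1*-/- replicate 1. Of the 8 genes, 2 passed with DESeq2 (*Dio2*, log2 fold change 1.91, and *Thrsp*, 1.01), 1 with total counts (*Dio2*, 1.75, adjusted p = 0.0102) and 2 without a filter (*Dio2*, 1.92, and *Thrsp*, 1.03), a setting in which genes with hardly any counts entered the estimate of spread. Of the 49 other tested genes of the pathway, 5 passed with DESeq2 and 1 with total counts. Without a filter all 57 genes of the lists were tested, and 6 passed. The log2 fold change of *Thra* turned to -0.16, of *Thrb* to -0.0075 and of *Klf9* to -0.0014 with total counts, where the median of all genes was -0.15. With each mouse left out that of *Thra* ran from -0.11 (without *Egr1*-/- replicate 1) to 0.12, and it was -0.097 without *Egr1*+/+ replicate 2. Over the alternatives the adjusted p of *Dio2* ran from 4.07e-30 to 0.626 and that of *Thrsp* from 3.28e-07 to 0.720. The causes of these differences between settings were not tested.

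The deviations of mice with the same replicate number had correlations of -0.0888, 0.106 and -0.126 over 17667 genes. With 3 mice per genotype these values cannot show which of the mice share a litter, or whether any share a batch. The replicate numbers were used as names of the mice and not as pairs, except with the replicate block. With the replicate block 0 genes passed and 1909 had an unadjusted p under 0.05, 0 of the 8 genes passed, and *Dio2* had a log2 fold change of 1.93. With 3 mice per genotype and 0 to 5 counts of *Dio1* per mouse, a difference in *Dio1* was not detectable at this depth.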
